A study of Mus musculus with 10 samples.

Results

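The subunits of the respiratory chain and ATP synthase were followed through 10 RNA-seq libraries of sorted mouse intestinal stem cells. Rows were taken by symbol: the Nduf, Sdh, Uqcr, Cyc1, Cox and Atp5 families of nuclear genes, and the mt-Nd, mt-Co, mt-Atp and mt-Cytb genes of mitochondrial DNA. The pattern matched 100 of the 30295 rows, and 93 that reached 1 TPM (a transcripts-per-million unit, scaled for transcript length) in 2 or more libraries were kept as members. They comprise 80 nuclear and 13 mitochondrially encoded genes. The 7 rows under that limit were Cox4i2, Cox6a2, Cox7b2, Cox8b and Cox8c, which are tissue-restricted isoforms, and the pseudogenes Atp5l-ps1 and Atp5l-ps2. Nearest the limit, Atp5l2-ps was kept with a mean of 0.697 TPM and Cox6a2 left out with 0.27 TPM. The pattern decides the complex as well: it leaves out Ndufab1, counts Ndufa4 with complex I although its product is now placed in complex IV, and takes in Atp5s, Atp5sl and Cox7a2l, which are related by name or are assembly factors. By this pattern 36 nuclear members belong to complex I, 4 to II, 9 to III, 13 to IV and 18 to V, and 7, 0, 1, 3 and 2 mitochondrial ones.

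The cells came from C57Bl/6 mice. Reserve stem cells were sorted from Hopx-CreER::LSL-tdTomato mice, in which CreER expressed from Hopx switches on a red reporter, after calorie restriction (Hopx CR, n = 2) or free feeding (Hopx AL, n = 2). Active stem cells were sorted from Lgr5-EGFP-IRES-CreER mice under the same diets (Lgr5 CR, n = 3, and Lgr5 AL, n = 3). Each of the 10 libraries is 1 animal, and each of 5 isolations held 1 CR and 1 AL animal of the same reporter line: isolations 4 and 5 for Hopx, and 1, 2 and 3 for Lgr5. Isolation, sort and line therefore cannot be told apart between Hopx and Lgr5 cells, and age, sex and the length of the restriction were not stated in the labels. Depth was 20.25 M to 87.22 M estimated counts per library.

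The respiratory chain passes electrons from NADH and succinate to oxygen. Complex I (NADH dehydrogenase) and complex II (succinate dehydrogenase) feed ubiquinone, complex III passes the electrons to cytochrome c, complex IV (cytochrome c oxidase) reduces oxygen, and complex V uses the resulting proton gradient to make ATP. Mitochondrial DNA encodes core subunits of all complexes but II and is transcribed as long precursors that are cut into single messages, so its members share their source. In the crypt, stem cells and the Paneth cells beside them are known to differ in how far they rely on mitochondrial respiration.

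The sorts set the frame for all that follows. All 7 active stem cell markers and all 10 Paneth cell markers of the lists used were present. Paneth markers summed to 213500 and 158600 TPM in Hopx CR and to 295900 and 197500 in Hopx AL, against 113700 to 148300 in Lgr5 CR and 64630 to 170400 in Lgr5 AL. Hopx itself stood at 75.99 to 110.8 TPM in the 4 Hopx libraries and at 137.8 to 237.7 TPM in the 6 Lgr5 libraries, so the name of the Hopx groups rests on the reporter. Lgr5 stood at 9.885 to 31.11 TPM in Hopx libraries and 18.37 to 93.89 TPM in Lgr5 libraries. The part of these other cell types in the results below was not tested. In such bulk samples, fewer cells of a type and less RNA per cell cannot be told apart.

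Every complex was expressed in every library. Summed over 36 nuclear members, complex I stood at 7006 and 10243 TPM in Hopx CR, 6467 and 9479 in Hopx AL, 7479, 8390 and 6428 in Lgr5 CR, and 8407, 8105 and 9209 in Lgr5 AL. These sums overlapped between all groups. Complex II was the smallest sum, at 1103 to 2304 TPM, and complex V the largest of nuclear members, at 6584 to 11454 TPM. Libraries of isolation 4 were lowest for the nuclear sum under either diet in Hopx cells, with 25622 TPM (CR) and 22862 TPM (AL), against 37042 and 34160 TPM in isolation 5.

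**Figure D1:**
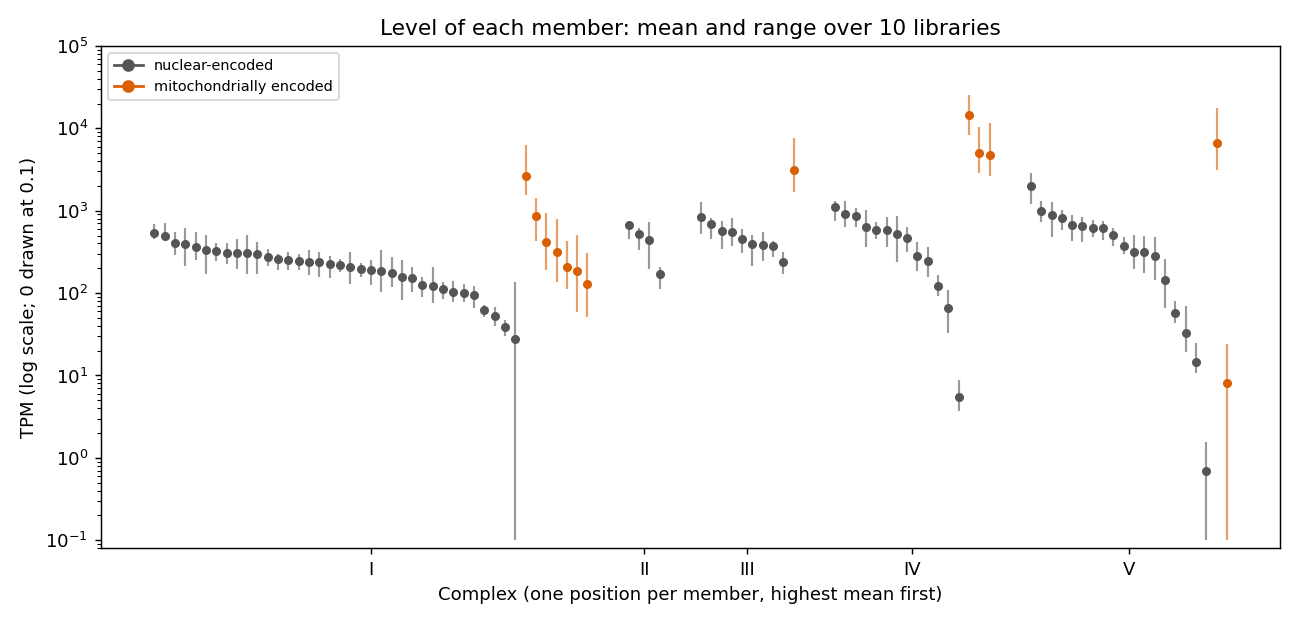
Level of each of the 93 members in TPM on a log scale, ordered within complex I to V. Points are means over the 10 libraries and lines run from the lowest to the highest library, with a value of 0 drawn at 0.1. The mitochondrially encoded mt-Co3 is highest, at a mean of 14510 TPM, and Ndufa4 has the widest range of the nuclear subunits.

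Among nuclear members, the highest mean of each complex was 534.8 TPM for Ndufb9 (accessory subunit of complex I), 663.9 TPM for Sdhd (membrane anchor of complex II), 843.5 TPM for Uqcr11 (small subunit of complex III), 1102 TPM for Cox4i1 (regulatory subunit of complex IV) and 1987 TPM for Atp5b (catalytic beta subunit of complex V). The lowest were Ndufa4 at 27.97, Sdhc at 169.5, Uqcrc2 at 241.6, Cox6b2 at 5.552 and the pseudogene Atp5l2-ps at 0.6966 TPM. Mitochondrial messages spanned a wide range, with means of 14510 TPM for mt-Co3 (complex IV), 6572 TPM for mt-Atp6 (proton channel of complex V), 3158 TPM for mt-Cytb (complex III) and 128.3 TPM for mt-Nd6 (complex I), and 8.011 TPM for mt-Atp8. The messages for Atp8 and Atp6, and those for Nd4l and Nd4, overlap, so reads shared by each pair may have been divided between them.

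Promoter sequence was available for 67 nuclear members in RefSeq (GRCm38.p6). Shown here are the 250 bases before the annotated start for 6 subunits from all 5 complexes, searched for the motifs known best from respiratory genes. Capitals mark the core of nuclear respiratory factor 1, NRF1 (GCATGCGC or GCGCATGC), and the core of the ETS family, to which GABP, also called NRF2, belongs (CCGGAAG or CTTCCGG). Ndufb6, Uqcr11 and Atp5l had the smallest p of their complex in Hopx against Lgr5 cells under CR, Sdhb likewise, Cox6a1 is shown as 1 of the 2 promoters with both motifs, and Cox7b as a promoter with neither.
Ndufb6 (chr4:40279422-40279671, - strand): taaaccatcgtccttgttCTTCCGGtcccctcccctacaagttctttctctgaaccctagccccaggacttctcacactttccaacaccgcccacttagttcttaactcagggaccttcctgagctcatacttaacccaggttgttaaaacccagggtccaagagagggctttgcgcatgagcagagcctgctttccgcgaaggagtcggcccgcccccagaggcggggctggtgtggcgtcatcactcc
Sdhb (chr4:140961021-140961270, + strand): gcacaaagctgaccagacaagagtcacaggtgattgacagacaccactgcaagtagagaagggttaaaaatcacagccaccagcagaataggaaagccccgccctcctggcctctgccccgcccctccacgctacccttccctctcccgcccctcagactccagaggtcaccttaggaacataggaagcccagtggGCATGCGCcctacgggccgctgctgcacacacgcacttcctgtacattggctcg
Uqcr11 (chr10:80406822-80407071, - strand): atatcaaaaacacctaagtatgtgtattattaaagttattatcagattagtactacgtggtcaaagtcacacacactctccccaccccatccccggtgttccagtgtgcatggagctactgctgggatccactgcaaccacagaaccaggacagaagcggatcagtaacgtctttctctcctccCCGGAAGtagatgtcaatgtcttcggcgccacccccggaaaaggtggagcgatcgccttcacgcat
Cox6a1 (chr5:115348959-115349208, - strand): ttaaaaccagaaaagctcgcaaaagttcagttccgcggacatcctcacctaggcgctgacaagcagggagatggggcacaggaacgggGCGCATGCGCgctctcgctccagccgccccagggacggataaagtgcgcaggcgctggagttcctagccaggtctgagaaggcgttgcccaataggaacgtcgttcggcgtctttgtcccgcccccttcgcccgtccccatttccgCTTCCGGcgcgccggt
Atp5l (chr9:44920743-44920992, - strand): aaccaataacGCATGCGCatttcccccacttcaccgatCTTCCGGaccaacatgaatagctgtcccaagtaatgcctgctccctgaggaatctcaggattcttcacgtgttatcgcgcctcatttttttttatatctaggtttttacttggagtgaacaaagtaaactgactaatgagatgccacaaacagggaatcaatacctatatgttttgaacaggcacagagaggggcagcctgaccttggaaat
Cox7b (chrX:106015450-106015699, + strand): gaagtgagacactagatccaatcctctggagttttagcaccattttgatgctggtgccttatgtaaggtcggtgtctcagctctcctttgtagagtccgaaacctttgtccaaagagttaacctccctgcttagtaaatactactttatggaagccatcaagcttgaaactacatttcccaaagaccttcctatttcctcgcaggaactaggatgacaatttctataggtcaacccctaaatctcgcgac
Atp5l was the other promoter with both motifs. In Cox6a1, 2 overlapping matches of NRF1 on opposite strands form 1 palindrome. Counting both strands, 11.9% of the 67 members' promoters held the NRF1 core, beside 4.53% of 11742 tested genes in the table and 2.56% of all 26982. For ETS the shares were 17.9%, 14% and 7.83%. YY1 (AAGATGG or CCATCTT), a further regulator of respiratory genes, matched in 2.99%, 4.97% and 5.19%, and SP1 (GGGCGG or CCGCCC) in 35.8%, 60.1% and 35.4%. Neither the NRF1 nor the ETS letters occurred in 49 of the 67 windows. These matches describe letters in a window, not binding.

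Diet and the mitochondrial messages were compared first. In Hopx cells most mitochondrially encoded subunits had lower values under CR, and in Lgr5 cells higher values. The median of the nuclear members lay nearer that of all genes over each line. Within isolation 4 (Hopx) it was nearer by little. There it was -0.40 log2 units in CPM, beside -0.50 for the mitochondrial members and -0.002 for all genes. Summed over 13 members, the mitochondrial messages stood at 22772 and 30299 TPM in Hopx CR, against 27363 and 56132 TPM in Hopx AL. In Lgr5 cells they stood at 83269, 41569 and 30979 TPM under CR, against 30623, 26920 and 38097 TPM under AL. The sums overlap between the diets in both lines.

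Set against the nuclear sum of the same library, which removes the scaling of the library, the diets no longer overlapped. The mitochondrial to nuclear ratio of TPM was 0.889 and 0.818 in Hopx CR, against 1.197 and 1.643 in Hopx AL. It was 2.94, 1.32 and 1.29 in Lgr5 CR, against 0.957, 0.871 and 1.095 in Lgr5 AL. Every CR library thus lay below the AL libraries in Hopx cells and above them in Lgr5 cells. Within isolations the log2 ratio differed by -0.43 and -1.01 (isolations 4 and 5, Hopx CR minus AL) and by 1.62, 0.60 and 0.24 (isolations 1, 2 and 3, Lgr5 CR minus AL). The ratio moves with both sums. The mitochondrial sum differed by -0.265 and -0.89 log2 units (isolations 4 and 5) and by 1.44, 0.63 and -0.30 (isolations 1, 2 and 3). The nuclear sum differed by 0.16 and 0.12, and by -0.18, 0.03 and -0.54, in the same order. In isolation 3 the ratio was thus higher under CR although the mitochondrial sum in TPM was lower, as the nuclear sum was lower still. These 2 TPM differences depend on the scale. In CPM the medians in isolation 3 were -0.035 for the nuclear and 0.17 for the mitochondrial members. The ratio was read off after the members were known, so it carries no test. Lgr5 CR replicate 1 was the highest library, and the other Lgr5 CR libraries still lay above the Lgr5 AL libraries without it.

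**Figure D2:**
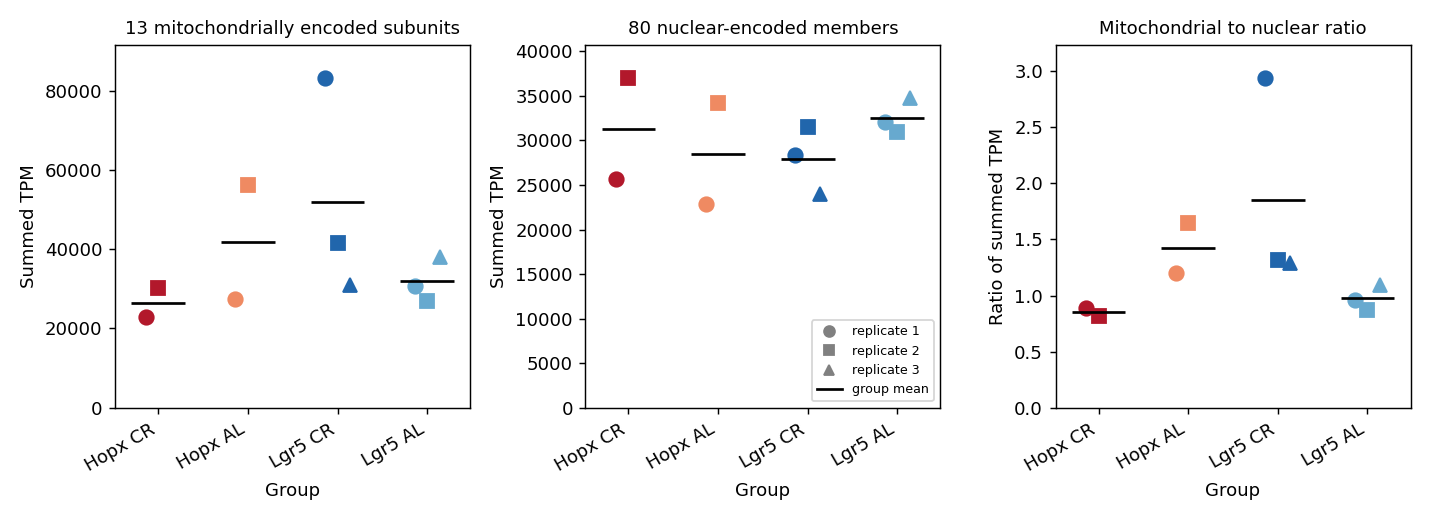
Summed TPM of the 13 mitochondrially encoded and the 80 nuclear-encoded members, and their ratio, in each library of Hopx CR, Hopx AL, Lgr5 CR and Lgr5 AL. Symbols mark replicates and bars group means. The ratio is 0.818 to 0.889 in Hopx CR below 1.197 to 1.643 in Hopx AL, and 1.29 to 2.94 in Lgr5 CR above 0.871 to 1.095 in Lgr5 AL.

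Tests used edgeR's quasi-likelihood fit to the counts of all 15839 genes that passed a filter on low counts, after TMM scaling (trimmed mean of M-values). Values in CPM are counts scaled to a common library size in this way, and a call needs a Benjamini-Hochberg adjusted p under 0.05. The filter kept 91 members, 79 nuclear and 12 mitochondrial, and left out mt-Atp8 and Atp5l2-ps. No member was called in any of the 6 contrasts. Over all genes, 0.0126% were called in Hopx CR against AL, 0.0189% in Lgr5 CR against AL, 0.0189% each in the contrasts of Hopx with Lgr5 cells under CR and under AL, and 0.00631% each for the difference between the diet effects and for their mean. Counts at an unadjusted p under 0.05 are read against the same share over all genes.

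In Hopx CR against AL the median log2 fold change of the 12 mitochondrial members was -0.73, beside -0.02 for all genes, and 10 of the 12 were lower. None of them had an unadjusted edgeR p under 0.05, where 3.11% of all genes were lower at that limit, and 7 did not overlap between the diets, where 21.1% of all genes were lower without overlap. The cytochrome b message mt-Cytb stood at 1977 and 2370 CPM in Hopx CR, against 3015 and 6182 CPM in Hopx AL, with a log2 fold change of -1.08 (SE 0.554, edgeR adjusted p = 0.616). The oxidase subunit mt-Co2, which takes electrons from cytochrome c, stood at 1381 and 1767 CPM in Hopx CR, against 2519 and 3962 CPM in Hopx AL (-1.04, SE 0.505, edgeR adjusted p = 0.597). For both genes the Hopx CR libraries lay below the Hopx AL libraries. Hopx AL replicate 2 was the highest Hopx library for 10 of the 12, and the median was -0.31 without it. Enterocyte markers moved with diet in these cells, at 14310 and 17900 TPM in Hopx CR, against 7714 and 7064 TPM in Hopx AL, and their part in the result was not tested. In Lgr5 cells these markers were also higher under CR in isolations 2 (17640 against 8217 TPM) and 3 (19790 against 7440 TPM), and not in isolation 1 (25160 against 26700 TPM).

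Within complex I the signs were mixed, and they turned with single libraries. Its subunits mt-Nd1, mt-Nd2, mt-Nd3, mt-Nd4 and mt-Nd4l, parts of the membrane arm that pumps protons, had log2 fold changes of -0.998 to -0.567 in Hopx CR against AL. For mt-Nd5, the subunit at the far end of that arm, values were 282.2 and 437.9 CPM in Hopx CR against 154.2 and 353.8 CPM in Hopx AL (log2 fold change 0.50, SE 0.568, edgeR adjusted p = 0.827). For mt-Nd6, whose gene lies on the opposite DNA strand from the other 12, they were 29.67 and 59.74 CPM in Hopx CR against 22.66 and 46.42 CPM in Hopx AL (0.37, SE 0.546, edgeR adjusted p = 0.874). The diets overlap for both. Without Hopx AL replicate 2, mt-Nd2 (0.06), mt-Nd4 (0.25) and mt-Nd4l (0.54) had positive values, and mt-Nd6 was negative (-0.21) without Hopx CR replicate 2 and also negative (-0.04) without Hopx AL replicate 1. Within isolation 4 mt-Nd4l was already positive, at 0.11. The genes for Nd5 and Nd6 meet end to end on opposite strands, and without strand information their reads cannot be told apart there. Of the 12, only these 2 had positive CR minus AL differences in each of the 5 isolations, from 0.31 to 2.67 (mt-Nd5) and from 0.34 to 2.11 (mt-Nd6) log2 units.

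In Lgr5 CR against AL all 12 mitochondrial members were higher, with a median log2 fold change of 1.14, beside 0.02 for all genes. At an unadjusted p under 0.05, 9 of the 12 were higher, where 5.57% of all genes were, and 4 did not overlap, where 7.41% of all genes were higher and 7.49% lower without overlap. As these messages are cut from shared precursors, the 12 are not independent. The smallest p was that of mt-Nd1, with 4232, 1779 and 1604 CPM in Lgr5 CR, against 1091, 1016 and 1243 CPM in Lgr5 AL (log2 fold change 1.18, SE 0.354, edgeR adjusted p = 0.3). Its groups do not overlap. Next were mt-Nd5, with 745.6, 317.4 and 214.4 CPM in Lgr5 CR against 117.3, 202.5 and 145.2 CPM in Lgr5 AL (1.46, SE 0.473, edgeR adjusted p = 0.342), and mt-Atp6, with 7225, 2325 and 1896 CPM in Lgr5 CR against 1278, 1350 and 1848 CPM in Lgr5 AL (1.35, SE 0.484, edgeR adjusted p = 0.401). For both, every Lgr5 CR library was above every Lgr5 AL library.

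Tuft cell markers and 1 gene of the muscle list moved with diet in Lgr5 cells too. Tuft cell markers summed to 43.9, 48.65 and 32.23 TPM in Lgr5 CR, against 161.3, 94.03 and 333.9 TPM in Lgr5 AL, with all 7 present. Muscle markers summed to 8.54, 17.51 and 21.74 TPM in Lgr5 CR, against 4.512, 5.854 and 5.694 TPM in Lgr5 AL. Most of each sum was 1 gene, Acta1, at 7.925, 16.56 and 20.95 TPM in Lgr5 CR, against 3.712, 4.879 and 4.646 TPM in Lgr5 AL. Of the 8 genes, only Acta1 reached 1 TPM in 2 or more libraries. In Hopx cells the muscle sum did not overlap either, at 17.35 and 4.983 TPM under CR, against 3.024 and 2.45 TPM under AL. Neither sum overlaps between the diets in Lgr5 cells. A sum that is mostly Acta1 does not identify muscle cells, and the part of tuft cells in the result was not tested.

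The size in Lgr5 cells came largely from 1 animal. The median difference of the 12 members within isolations was 2.10 in isolation 1, 0.71 in isolation 2 and 0.17 in isolation 3, and all 12, all 12 and 9 of the 12 were higher in the CR animal. Without Lgr5 CR replicate 1 the median log2 fold change was 0.36, against 1.14 with it. In that library the messages did not differ alike: within isolation 1, mt-Nd3 differed by 0.50 and mt-Co3 by 0.74 log2 units, and mt-Nd5 by 2.67, mt-Atp6 by 2.499 and mt-Nd4l by 2.43. In Hopx cells the median was -0.50 in isolation 4 and -0.93 in isolation 5.

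**Figure D3:**
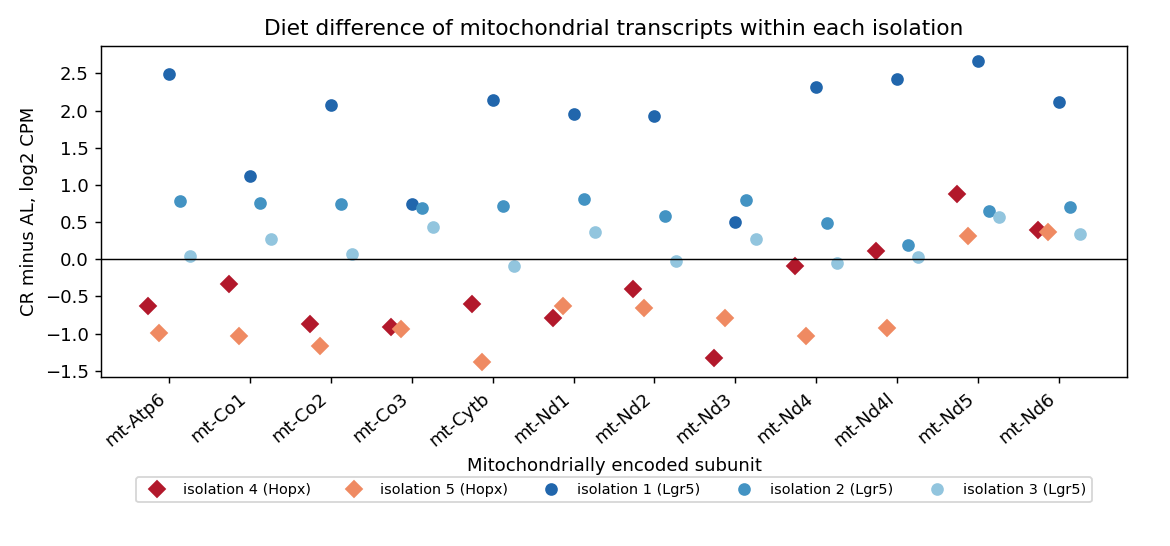
CR minus AL difference in log2 CPM for the 12 tested mitochondrially encoded subunits within each isolation. Diamonds are Hopx isolations 4 and 5, and circles are Lgr5 isolations 1, 2 and 3. Isolation 1 lies highest for 11 of the 12 messages, and only mt-Nd5 and mt-Nd6 lie above 0 in all 5 isolations.

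The difference between the diet effects, Hopx minus Lgr5, was negative for all 12 mitochondrial members, with a median of -1.70, beside -0.04 for all genes. At an unadjusted p under 0.05, 9 of the 12 were lower, where 1.89% of all genes were lower and 2.83% higher. None passed the adjustment: mt-Nd1 (-1.88, SE 0.557) and mt-Co2 (-2.19, SE 0.654), which had the smallest p, both stood at an edgeR adjusted p of 1. For the nuclear members the median of that difference was -0.13, and none had an unadjusted p under 0.05. It was 0.12 without Hopx CR replicate 1, 0.02 without Lgr5 CR replicate 2, 0.00 without Lgr5 AL replicate 3 and 0.35 on log2(TPM + 1), where all genes had 0.38 and the mitochondrial median was -0.99. The mean diet effect, which gives each line equal weight, was positive for 10 of the 12 mitochondrial members (median 0.20) and 22 of 79 nuclear ones (median -0.08), beside 49.9% of all genes. At an unadjusted p under 0.05 stood mt-Nd5 (0.98, edgeR adjusted p = 0.276) and mt-Nd6 (0.80, edgeR adjusted p = 0.34) as higher, where 8.35% of all genes were, and Ndufa4 as lower, where 6.17% were.

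Over each line the nuclear members showed a smaller median shift. Their median log2 fold change was -0.16 in Hopx CR against AL, with 19 of 79 higher, and -0.03 in Lgr5 CR against AL, with 34 of 79 higher, beside 48.6% and 51.8% of all genes. At an unadjusted p under 0.05 stood 1 nuclear member in Hopx cells, as higher, where 5.41% of all genes were higher, and 1 in Lgr5 cells, as lower, where 4.21% of all genes were lower. In Hopx cells the median of -0.16 was 0.06 without Hopx CR replicate 1 and -0.43 without Hopx CR replicate 2, so its sign rests on single libraries. Within isolations the median CR minus AL difference of the nuclear members was -0.40 in isolation 4 and 0.02 in isolation 5. Of the 79, 8 and 41 were higher there. In Lgr5 isolations 1, 2 and 3 it was -0.19, 0.12 and -0.035, with 17, 64 and 36 higher.

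Of 11 core or catalytic nuclear subunits listed for description (Ndufs1, Ndufv1, Sdha, Sdhb, Uqcrc1, Uqcrfs1, Cyc1, Cox4i1, Cox5a, Atp5a1 and Atp5b), 9 had positive values in Hopx CR against AL, with a range of -0.11 to 0.51 and a median of 0.22. Sdha, the flavoprotein of complex II that oxidises succinate, stood at 1131 and 1131 CPM in Hopx CR, against 759.9 and 922.4 CPM in Hopx AL (log2 fold change 0.43, SE 0.203, edgeR adjusted p = 0.595). Its groups did not overlap, and it was higher in the CR animal of isolations 4 and 5. Uqcrc1, a core protein of complex III, stood at 519.4 and 794.4 CPM in Hopx CR, against 493.8 and 428 CPM in Hopx AL (0.51, SE 0.254, edgeR adjusted p = 0.604). Ndufv1, the NADH-binding subunit of complex I (0.34), and Atp5a1, the alpha subunit of ATP synthase (0.36), also had positive values. The 2 of the 11 with negative values, Cox5a and Cox4i1, are the shortest by the tables, at 434 and 530 bases. All genes over 1000 bases had a median of 0.08 in this contrast. The part of length in these values was not tested.

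With a negative value, Cox8a, the smallest subunit of complex IV, stood at 264.7 and 358.9 CPM in Hopx CR, against 372.8 and 470.8 CPM in Hopx AL (log2 fold change -0.44, SE 0.293, edgeR adjusted p = 0.7). All 13 nuclear members of complex IV had negative values in Hopx CR against AL, from -0.52 to -0.02, and 3 of 4 of complex II positive ones. As summed TPM, nuclear complex IV overlapped between the diets, at 5170.8 and 8214.9 in Hopx CR, against 5168.9 and 8406.6 in Hopx AL. On log2(TPM + 1) the median of all nuclear members was 0.10, where that of all genes was 0.24. Across 77 nuclear members with a length to be read from the tables, the log2 fold change went with length (Spearman rho 0.671), beside 0.407 over 10826 genes. Genes are not independent replicates, and they share these libraries. The members under 500 bases had a median of -0.28 and those over 1000 bases 0.06, beside -0.38 and 0.08 for all genes of those lengths. With length and GC content of the transcripts corrected, the median of the nuclear members was 0.03.

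In Lgr5 cells the nuclear member of each complex with the smallest p was Ndufa4 in complex I, Sdhd (log2 fold change 0.12), Uqcrb (-0.17), Cox6b2 (-0.49) and Atp5sl (-0.24), at edgeR adjusted p-values of 0.5 to 0.875. The same 11 core or catalytic nuclear subunits had a median of 0.06 there, with a range of -0.05 for Atp5b to 0.13 for Uqcrfs1, the Rieske iron-sulphur protein of complex III.

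**Figure D4:**
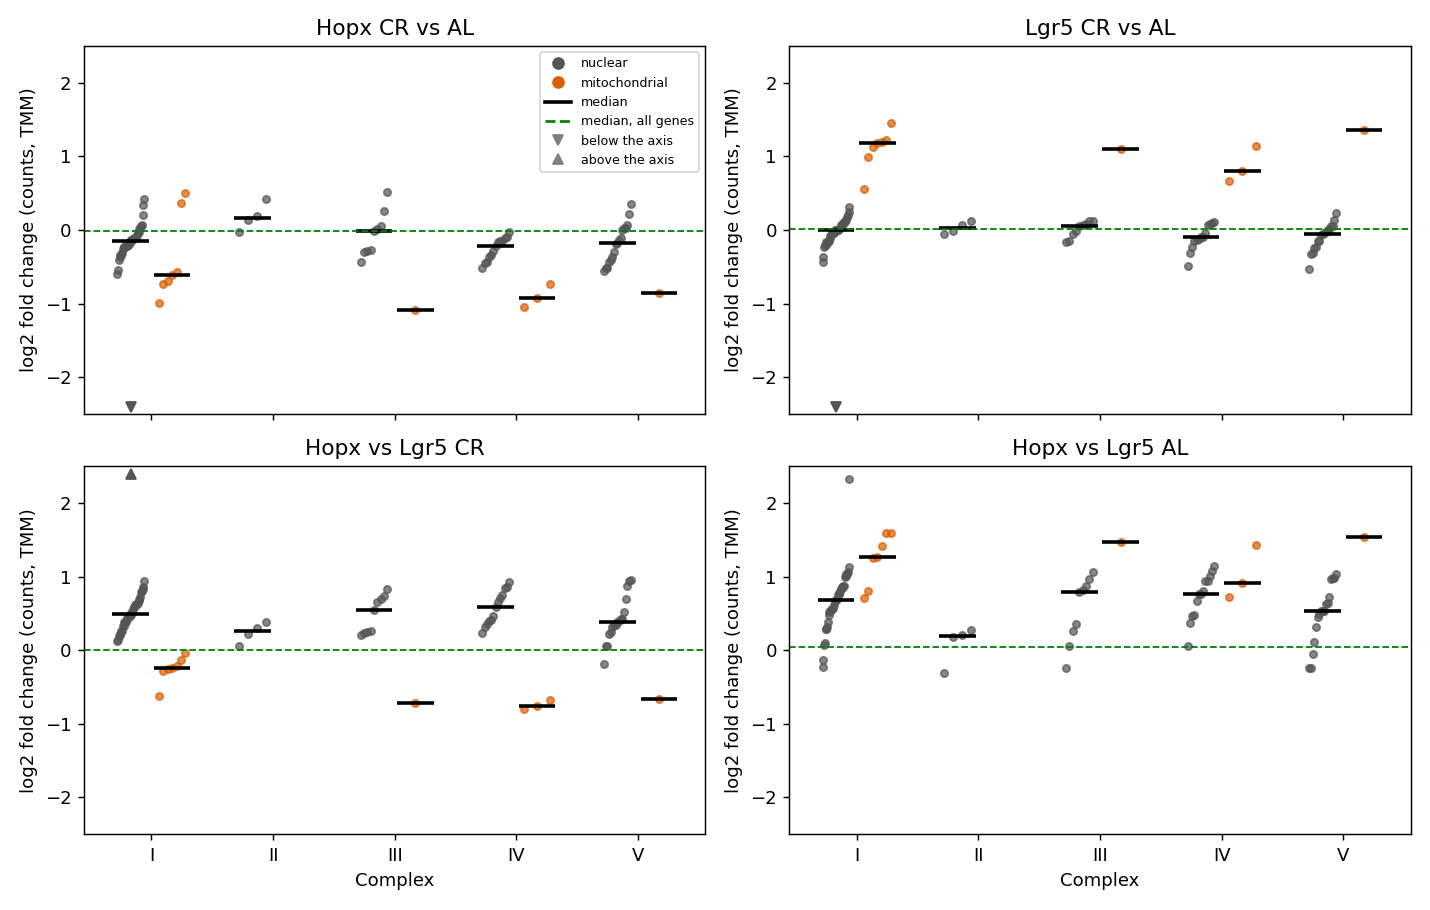
Log2 fold change of each tested member by complex, from counts with TMM scaling, for Hopx CR against AL, Lgr5 CR against AL, and the Hopx with the Lgr5 population in CR and in AL mice. Grey points are nuclear and orange points mitochondrially encoded members, black bars their medians, the dashed line the median of all genes, and triangles values beyond the axis. The mitochondrial points lie mostly below 0 in Hopx CR against AL (median -0.73) and above 0 in Lgr5 CR against AL (1.14).

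Between the populations, the nuclear subunits had higher values in Hopx than in Lgr5 cells on the count scale under either diet, whereas on the TPM scale their median under AL was below 0. Under CR, 78 of 79 had positive log2 fold changes, beside 50.2% of all genes, with a median of 0.46, and 24 were higher at an unadjusted p under 0.05, where 3.31% of all genes were. Groups did not overlap for 29, all higher, where 11.7% of all genes were higher and 11.4% lower without overlap. The exception in sign was Atp5sl (-0.18). Under AL, 72 of 79 had positive values, beside 52.4% of all genes, with a median of 0.64. At an unadjusted p under 0.05, 46 were higher and none lower, where 9.27% of all genes were higher and 8.42% lower. There 64 were higher and 4 lower without overlap, where 18.8% of all genes were higher and 15.8% lower. The medians of all genes were 0.00 and 0.04. These comparisons share no library, but each sets isolations 4 and 5 against 1, 2 and 3.

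Single genes stood well short of the threshold under CR and closer under AL. Under CR, Atp5l, the g subunit of ATP synthase, stood at 99.04 and 170.6 CPM in Hopx cells, against 79.78, 87.14 and 53.1 CPM in Lgr5 cells (log2 fold change 0.88, SE 0.286, edgeR adjusted p = 0.645). Under AL it stood at 136.5 and 161.3 CPM in Hopx cells, against 85.65, 75.63 and 56.58 CPM in Lgr5 cells (1.04, SE 0.285, edgeR adjusted p = 0.126). Its groups did not overlap under either diet.

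Ndufb9, an accessory subunit of complex I, stood at 297.4 and 289.4 CPM in Hopx AL, against 180.5, 184.6 and 122.2 CPM in Lgr5 AL (0.85, SE 0.209, edgeR adjusted p = 0.105), the smallest adjusted p of any member in that contrast. Uqcr11 stood at 249.8 and 310.9 CPM in Hopx AL, against 148.6, 149 and 104.2 CPM in Lgr5 AL (1.07, SE 0.308, edgeR adjusted p = 0.134). Cox7b, a small subunit of complex IV, stood at 203.3 and 249.7 CPM in Hopx AL, against 140.8, 108.5 and 103.9 CPM in Lgr5 AL (0.94, SE 0.271, edgeR adjusted p = 0.134). None of these overlapped between the lines. DESeq2, run as an alternative on the same counts, called 15 members under AL, Ndufb9 (adjusted p = 0.0177), Atp5l, Uqcr11 and Cox7b among them, where it called 7.3% of all genes, and none under CR.

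Of the 11 core or catalytic nuclear subunits, 5 had negative values in Hopx against Lgr5 cells under AL and 0 under CR. Under AL, Sdha stood at 759.9 and 922.4 CPM in Hopx cells, against 1014, 1013 and 1091 CPM in Lgr5 cells (log2 fold change -0.31, SE 0.187, edgeR adjusted p = 0.43), and did not overlap. On log2(TPM + 1), where all genes shifted by -0.63, Sdha was called, at -1.10 (limma adjusted p = 0.0156), and its adjusted p was 0.0154 to 0.0483 over the 3 TPM settings. Negative values were also seen for Atp5sl (-0.24), Atp5a1 (-0.24), Uqcrc1 (-0.24), Ndufv1 (-0.13) and Atp5b (-0.05). The 4 subunits of complex II had a median of 0.19 under AL and 0.26 under CR, beside 0.69 and 0.50 for complex I, 0.79 and 0.54 for complex III, 0.77 and 0.58 for complex IV and 0.53 and 0.38 for complex V, AL before CR in each pair.

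The fold changes went with the transcript length implied by the tables. The count tables and TPM tables imply 1 fixed length per gene (estimated count over TPM, constant within 1% over the libraries for all 10826 genes checked), with a median of 514 bases for the nuclear members and 2381 for all genes. Uqcr11 is 220 bases long by this measure, Atp5l 324, Ndufb9 441 and Cox7b 529, whereas Atp5a1 is 2257 and Sdha 2590. The measure is the length used for scaling, not the annotated one, whose median was 659 bases for the tested nuclear members. Across the 77 nuclear members the log2 fold change was lower for longer transcripts under CR (Spearman rho -0.821) and under AL (-0.811), beside -0.263 and -0.36 over 10826 genes. These values describe genes that share libraries, and carry no p.

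Within each length class the median of the members was above that of all genes, a difference that was not tested. The classes are broad and the last has no upper bound, so members and genes are not matched in length within them. Under AL, the 38 members under 500 bases had a median of 0.86, beside 0.70 for 385 genes of that length. The 20 of 500 to 1000 bases had 0.51, beside 0.34 for 1037 genes. The 19 over 1000 bases had 0.21, beside -0.05 for 9404 genes. Under CR the medians in the same order were 0.68, 0.39 and 0.22 for members, beside 0.39, 0.19 and -0.02 for all genes. With length and GC content corrected, the medians over the nuclear members were 0.37 under CR and 0.41 under AL.

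**Figure D5:**
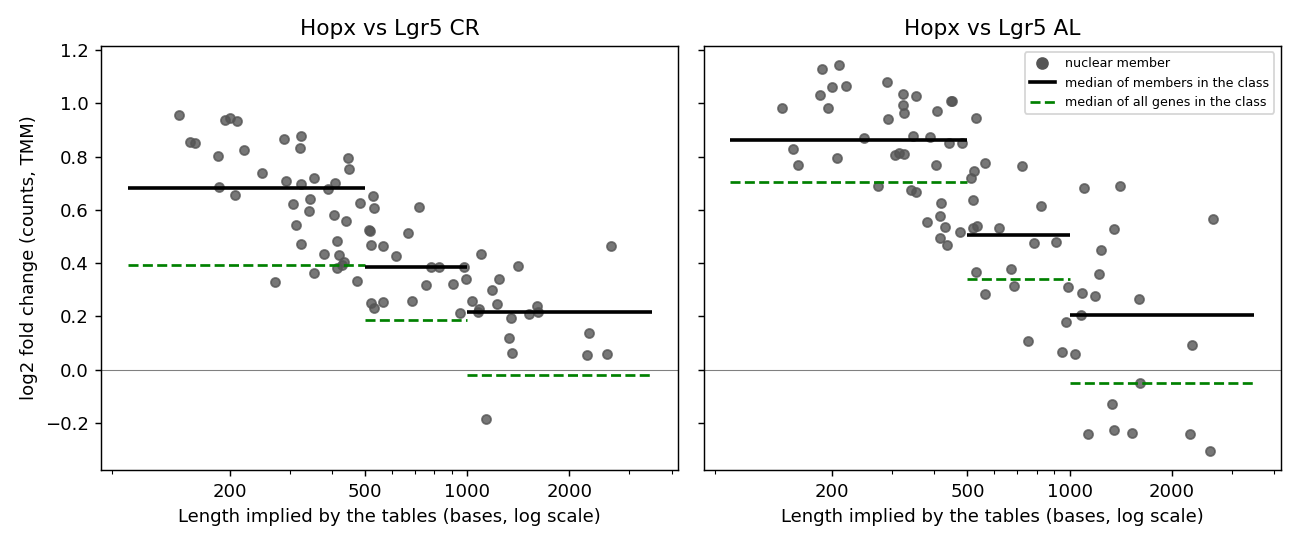
Log2 fold change of 77 nuclear members in Hopx against Lgr5 cells under CR and under AL, against the length implied by the tables on a log scale. Black lines are medians of the members under 500, from 500 to 1000 and over 1000 bases, and dashed lines those of all genes in the class. Short subunits lie highest, with medians of 0.68 (CR) and 0.86 (AL) under 500 bases on this count scale, whereas the median of the nuclear members under AL was -0.14 on log2(TPM + 1).

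The direction between the populations also depended on the scale. On log2(TPM + 1), fitted with limma, the nuclear median was 0.15 under CR and -0.14 under AL, where the median of all genes was -0.25 and -0.63, so the members lay above all genes on either scale. On that scale, under AL, 17 of 91 members were lower and 0 higher at an unadjusted p under 0.05, where 44.2% of all genes were lower and 1.29% higher. The limma fit called 9 members, all lower, where it called 29.4% of all genes. EdgeR on counts had 55 members higher and 0 lower at the unadjusted limit and none past the adjustment. Paneth markers, with which this shift moved, took 197500 and 295900 TPM in Hopx AL and 64630 to 170400 TPM in Lgr5 AL. Their part in it was not tested.

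The mitochondrial members differed between the populations in opposite directions by diet. Under CR all 12 had lower values in Hopx than in Lgr5 cells, with a median of -0.46. Under AL all 12 had higher values, with a median of 1.35, 9 at an unadjusted p under 0.05, where 9.27% of all genes were higher. One library weighed heavily on each side: the median was 0.09 under CR without Lgr5 CR replicate 1, and 0.73 under AL without Hopx AL replicate 2. On the log2(TPM + 1) scale the medians were -0.72 and 0.52.

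Tissue-restricted isoforms were present at low levels. Cox7a1, the form of heart and skeletal muscle, stood at 47.82 and 108.5 TPM in Hopx CR, 62.36 and 80.15 in Hopx AL, 32.47 to 72.88 in Lgr5 CR and 39.95 to 98.98 in Lgr5 AL, beside 158.3 to 358 TPM for Cox7a2, the form found in most tissues. In TPM all groups overlapped for Cox7a1, whereas in CPM Hopx AL (14.79 and 14.2) lay above Lgr5 AL (13.53, 8.355 and 3.617). Muscle markers summed to 2.45 to 21.74 TPM, with 1 of 8 reaching 1 TPM in 2 libraries and Myh11 under 0.1 TPM in every library. Cox6b2, the testis form, stood at 3.755 to 8.838 TPM, beside 312.1 to 641.2 TPM for Cox6b1, and testis markers summed to at most 0.1732 TPM. The 3 genes for the same c subunit of ATP synthase differed in level, with means of 987.8 TPM for Atp5g3, 816.2 for Atp5g1 and 57.34 for Atp5g2.

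Some levels rest on how reads were divided among copies. A row of at least 95% identity over 150 bases was found for 28 members, and 9 such rows averaged over 10 TPM. The copy Gm29216 held 50.3 to 62.4% of its sum with mt-Co1, Gm10175 68.7 to 76.8% of that with Atp5g2, Gm3244 67.3 to 72.9% of that with Ndufb4 and Gm10039 17.6 to 49.3% of that with Atp5g1. Gm15920 held 0 to 43% of its sum with Ndufa12, and Gm6969 0 to 19.4% of that with Cox7a2l. Levels of these 6 members are uncertain. Adding the copies to their members left no member called and the median of the mitochondrial members at 1.14 in Lgr5 CR against AL.

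Ndufa4 had the widest range of the nuclear subunits in relative terms. It stood at 1.174 and 21 TPM in Hopx CR, 38.86 and 134.9 TPM in Hopx AL, 0, 3.511 and 0 TPM in Lgr5 CR, and 57.34, 0 and 22.87 TPM in Lgr5 AL. It is listed at 0 in 3 libraries in which all other nuclear members were above 0, and no copy past the identity limit was found for it. Whether its reads were assigned to another transcript was not tested, so its level is uncertain. Its log2 fold change of -4.53 in Lgr5 CR against AL (SE 1.98, edgeR adjusted p = 0.5) rests on these values, and the sign was positive in isolation 2 and negative in isolations 1 and 3.

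Genes around the respiratory chain were counted in lists. Of 79 tested genes of the mitochondrial ribosome, which makes the mitochondrially encoded subunits, 75 had higher values in Hopx than in Lgr5 cells under CR (median 0.29) and 71 under AL (median 0.32), beside 50.2% and 52.4% of all genes. At an unadjusted p under 0.05, 7 were higher under CR and 24 under AL, where 3.31% and 9.27% of all genes were. In these genes 68 of 79 had lower values in Hopx CR than in AL (median -0.21) and 66 of 79 in Lgr5 CR than in AL (median -0.18). Of all genes, 48.6% and 51.8% had higher values in these contrasts. The lengths of the ribosome genes were not compared with those of all genes. In Hopx CR against AL, all genes under 500 bases had a median of -0.38 and those of 500 to 1000 bases -0.22. In Lgr5 CR against AL these medians were -0.07 and -0.05. Between the populations, all genes under 500 bases had medians of 0.39 under CR and 0.70 under AL. Those of 500 to 1000 bases had 0.19 and 0.34. The 14 enzymes of the citric acid cycle had medians of 0.07 and 0.04 between the populations under CR and AL, with 11 and 7 higher. Of 49 assembly factors, 40 had higher values in Hopx cells under CR (median 0.13) and 36 under AL (median 0.14), and 35 had lower values in Hopx CR than in AL and 33 in Lgr5 CR than in AL. Of 17 electron carriers and coenzyme Q enzymes, 13 and 12 had higher values in Hopx cells under CR and AL. Of 28 genes of biogenesis and mitochondrial DNA expression, 13 and 11 did, and of 7 adenine nucleotide carriers, porins and uncoupling proteins, 5 and 6. None of the lists held a gene past the threshold in these 4 contrasts.

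The smallest adjusted p was that of the pseudogene Mrpl48-ps, at 2.46 ± 0.017 CPM in Hopx AL (SD, n = 2) and at 0 in the 3 Lgr5 AL libraries (edgeR adjusted p = 0.0599). Timmdc1, an assembly factor of complex I, stood at 4.45 ± 0.375 CPM in Hopx CR (SD, n = 2) and 23 ± 8.07 CPM in Lgr5 CR (SD, n = 3), with a log2 fold change of -2.37 (SE 0.345, edgeR adjusted p = 0.0794), and under AL differed by -1.69 (SE 0.335, edgeR adjusted p = 0.0676). Ppargc1a, the coactivator that drives mitochondrial biogenesis, averaged 22.6 ± 7.57 CPM in Lgr5 CR and 9.17 ± 1.19 CPM in Lgr5 AL (SD, n = 3 each; 1.30, SE 0.34, edgeR adjusted p = 0.251). In Hopx CR against AL, where the mitochondrial messages mostly had lower values, it also had a positive log2 fold change (0.96, SE 0.411, edgeR adjusted p = 0.57). Etfb, a subunit of the flavoprotein that carries electrons from fatty acid oxidation, averaged 228 ± 35.4 CPM in Hopx AL and 141 ± 23 CPM in Lgr5 AL (SD, n = 2 and n = 3; 0.69, SE 0.205, edgeR adjusted p = 0.139).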

How the data were processed

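Full-length cDNA was made with SMART-Seq v4 and tagmented with Nextera XT, per the labels' protocols. These kits carry no molecular identifiers and mark no strand. The authors deposited estimated counts and TPM for the same 30295 gene rows. The submitters' processing notes name kallisto, edgeR and the build GRCh38, a human build, while the symbols are mouse symbols; the annotation is not given in the sources used here. Members and lists were chosen with earlier results of these data known.

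Estimated counts were rounded, filtered (filterByExpr, minimum count 10), TMM-scaled and fitted with edgeR 4.0.16 (R 4.3.3) with a mean per group over all 10 libraries. The biological coefficient of variation was 0.389. P-values were adjusted by Benjamini-Hochberg over 15839 genes. The standard error is the log2 fold change over the root of the F statistic. Named members were, in each contrast, the nuclear member of each complex with the smallest p and at least 5 TPM in the higher group, the highest and lowest members by TPM, the mitochondrial members, catalytic subunits and isoform families. Ndufb4 and Ndufa12 were named for their copies, after their values were seen. Of each related list, up to 3 genes of smallest p could be named. Some genes that the rule selects are not reported here. Related lists held assembly factors, electron carriers, citric acid cycle, biogenesis, carriers and mitochondrial ribosome.

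Isolation numbers pair a CR with an AL animal by the labels. Deviations from the group means correlated at 0.0195 to 0.165 between same-numbered libraries. Pairs with different numbers were not compared, so these values do not measure the strength of the pairing. With n = 2 per Hopx group, isolations 4 and 5 give the same value (0.0252) by construction. Alternatives were DESeq2 1.42.0, limma 3.58.1 on TPM, other filters and scalings, a length and GC correction from GENCODE M21 (98.9% of genes), isolation as a block, and each library left out. Near-identical rows were found with BLAST 2.17.0 and added to members in an alternative chosen after seeing the data.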

Additional observations from a re-analysis of the deposited data

Results flagged for a closer look

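Diet differences of opposite sign in all isolations of the lines were seen for 5 measures of the mitochondrially encoded members. The mean CR minus AL difference of the Hopx isolations minus that of the Lgr5 isolations was -1.71 log2 units for the median of the 12 members. It was -1.39 for those of complex I, -1.66 for complex IV and -1.92 for complex V. For the mitochondrial to nuclear ratio of TPM it was -1.54. Every Hopx isolation was below 0 and every Lgr5 isolation above it in these measures. Some values lay near 0: complex I was at -0.09 in isolation 4, with 3 of 7 members higher. Complex V, which is mt-Atp6 alone, was at 0.04 in isolation 3. In TPM mt-Atp6 was lower under CR in isolation 3 (4827 against 6785), and so was the mitochondrial sum (-0.30 log2 units). The agreement in sign thus depends on the scale. The difference was not tested for any of these measures, and gene by gene the interaction passed for no member. For complex III, mt-Cytb was at -0.09 in isolation 3, so the signs of the Lgr5 isolations were mixed.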

How the results depend on the processing

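Of 20 alternative settings, those that used edgeR on counts called 0 members in all 6 contrasts, also with any 1 library left out. DESeq2 called 1 member in Lgr5 CR against AL (mt-Nd1, adjusted p = 0.0447) and 15 in Hopx against Lgr5 cells under AL, where it called 2.3% and 7.3% of all genes. Limma on log2(TPM + 1), log2(TPM + 0.1) and unfiltered log2(TPM + 1) called 9, 9 and 7 there, Sdha among them each time, where these fits called 29.4%, 30.5% and 9.53% of all genes. These 3 fits use the same TPM values and differ only in pseudocount or filter, so they are not separate support. On these 3 scales the nuclear median was -0.135, -0.136 and -0.135 under AL and 0.153, 0.155 and 0.153 under CR, and the mitochondrial median under AL 0.517, 0.518 and 0.517. The difference between diet effects had medians of 0.346, 0.35 and 0.346 (nuclear), where all genes shifted by 0.38 on the first scale, and -0.992, -0.993 and -0.992 (mitochondrial). As the tables imply 1 fixed length per gene, TPM and CPM differ, beside that length, by 1 factor per library shared by all its genes. Moves between the scales thus reflect these factors and the different fits. What set the factors was not tested.

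With isolation as a replicate block, 0 members were called in the 4 diet contrasts, and medians were -0.19 (Hopx) and -0.02 (Lgr5) for nuclear, -0.70 and 0.91 for mitochondrial members, so the pairing changed no call. No block could be fitted between the lines, as each isolation holds 1 line.

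Leaving out 1 library, nuclear medians ranged over -0.432 to 0.0629 (Hopx diet), -0.175 to 0.0841 (Lgr5 diet), -0.418 to 0.124 (difference), -0.246 to 0.0319 (mean), 0.2 to 0.674 (lines, CR) and 0.489 to 0.726 (lines, AL). Mitochondrial medians ranged over -1.09 to -0.311, 0.357 to 1.43, -2.12 to -1.11, -0.192 to 0.501, -0.828 to 0.0918 and 0.729 to 1.45 in the same order. Signs turned for members far from the threshold. In Lgr5 CR against AL, Sdhd was -0.07, -0.0701 and -0.07 on the TPM scales and ranged over -0.0286 to 0.225 with 1 library left out, and Uqcrb over -0.365 to 0.0126. In the difference between diets, Cox8a was 0.149 on all 3 TPM scales and Atp5s 0.0157, 0.0127 and 0.0157. In Hopx CR against AL, mt-Nd2 ranged over -1.02 to 0.0581, mt-Nd4 over -1.3 to 0.245 and mt-Nd4l over -1.24 to 0.542, positive only without Hopx AL replicate 2. With the length and GC correction mt-Nd4l was 0.309. The range of mt-Nd6 was -0.213 to 0.977, and it was negative in the absence of Hopx AL replicate 1 (-0.0445) or of Hopx CR replicate 2. Depth was not varied.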
